A study of Mus musculus with 7 samples.

Results

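C-type lectin receptors of myeloid cells are the subject here: 10 genes, Clec4d, Clec4e, Clec4n, Clec5a, Clec7a, Clec4a1, Clec4a2, Clec4a3, Clec10a and Cd209a, taken by gene symbol from a table of 26130 genes. All 10 were in the table and all 10 passed the filter on low counts. The cells came from lungs of Fth1-mScarlet x Lyz2GFP mice, in which a red reporter follows the ferritin heavy chain gene Fth1 and a green one follows the lysozyme gene Lyz2. They were sorted as Lyz2GFP+, CD11b+, Ly6C+ and Ly6G-, which takes monocytes and monocyte-derived macrophages and leaves out neutrophils. Fth1-high LPS cells (3 libraries) and Fth1-low LPS cells (2 libraries) came from mice given 20 µg of E. coli lipopolysaccharide (LPS) in 50 µl into the trachea 3 days before. Untreated Fth1-low cells (2 libraries) carried the same reporters and passed the same gates without LPS.

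Several features limit these groups as models. The labels do not say whether libraries of one group came from separate mice, and the p-values therefore speak only of library-to-library spread, part of which may be technical. The age of the mice is not given in the sources used here. No untreated cells of high Fth1 signal are analysed here. Where Fth1-high LPS cells are set against untreated cells, treatment and gate change together and their parts cannot be told apart. Fth1-low LPS replicate 1 held 637787 counts, against 10459703 to 27997007 in the other 6 libraries. In it, 1 count stood for 1.67 CPM (counts per 1000000 counts of the scaled library size) and ribosomal RNA genes took 19.5% of counts. It was the lower of the Fth1-low LPS pair for all 10 receptor genes. Fth1 itself, the gate gene, stood at 13231 to 21000 CPM in Fth1-high LPS, 2970 and 4825 CPM in Fth1-low LPS, and 1672 and 1786 CPM in untreated libraries.

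These receptors bind sugars and lipids of microbes and of damaged cells through a shared extracellular fold. Clec4d (MCL), Clec4e (Mincle) and Clec4n (Dectin-2) pair with the Fc receptor gamma chain Fcer1g, Clec5a (MDL-1) pairs with the adaptor DAP12 (Tyrobp), and Clec7a (Dectin-1) carries its own activating motif. All of these pass signals to the kinase Syk and, for several, on to the adaptor Card9 and NF-kB. Clec4a2 (DCIR) carries an inhibitory motif in its cytoplasmic tail, and Clec4a1 and Clec4a3 are relatives without one. Clec10a binds galactose-type sugars, and Cd209a is a mouse relative of human DC-SIGN, a mannose and fucose binder of dendritic cells.

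In GENCODE vM21 on mm10, 6 of the 10 genes lie in one cluster of 368 kb on chromosome 6, from Clec4a1 at 122921848 to the end of Clec4e at 123289870. The order along the chromosome is Clec4a1, Clec4a3, Clec4a2, Clec4n, Clec4d and Clec4e, with the other lectin genes Clec4a4, Clec4b1 and Clec4b2 between them. Clec4d is on the plus strand at chr6:123262111-123275265 and Clec4e is on the minus strand at chr6:123281789-123289870, tail to tail across 6.52 kb. Clec5a (chr6:40574894-40585821, minus) and Clec7a (chr6:129461591-129472779, minus) lie elsewhere on that chromosome. Clec10a is at chr11:70156197-70170834 (plus) and Cd209a at chr8:3743397-3748984 (minus). The annotation classes Clec7a as a polymorphic pseudogene and the others as protein-coding.

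The promoters of Clec4d, Clec4e and Clec5a are shown because these genes were higher in both LPS groups than in untreated cells. RefSeq promoter windows of GRCm38.p6, from 250 bases before to 50 bases after the start, matched 8 of the 10 genes. Clec4n, which was also higher in both LPS groups than in untreated cells, and Clec10a had no window. Each is printed 5′ to 3′ on the gene's own strand. The windows are chr6:123261857-123262156 (plus) for Clec4d, chr6:123289822-123290121 (minus) for Clec4e and chr6:40585756-40586055 (minus) for Clec5a. Capitals mark motif matches.
Clec4d: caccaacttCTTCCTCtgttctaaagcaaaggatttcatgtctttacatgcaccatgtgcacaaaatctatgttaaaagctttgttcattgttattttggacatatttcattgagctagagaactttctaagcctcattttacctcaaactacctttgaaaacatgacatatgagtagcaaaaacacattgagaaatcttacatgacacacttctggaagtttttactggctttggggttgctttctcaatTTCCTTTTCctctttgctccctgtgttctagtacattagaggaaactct
Clec4e: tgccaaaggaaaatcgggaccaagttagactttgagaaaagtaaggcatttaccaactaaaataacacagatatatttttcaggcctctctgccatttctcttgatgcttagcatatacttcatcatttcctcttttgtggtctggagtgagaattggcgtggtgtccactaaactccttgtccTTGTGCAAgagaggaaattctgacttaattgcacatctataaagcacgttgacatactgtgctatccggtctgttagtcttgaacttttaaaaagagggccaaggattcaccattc
Clec5a: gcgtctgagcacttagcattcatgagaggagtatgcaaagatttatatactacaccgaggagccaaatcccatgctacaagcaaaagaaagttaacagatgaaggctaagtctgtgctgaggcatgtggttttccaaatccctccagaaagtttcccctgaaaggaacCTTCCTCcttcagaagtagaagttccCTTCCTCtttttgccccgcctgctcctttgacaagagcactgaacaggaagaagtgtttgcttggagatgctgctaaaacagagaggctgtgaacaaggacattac
The motifs searched, on both strands, were AP-1 (TGANTCA), PU.1 (GAGGAAG), C/EBP (TTGCNNAA) and the core of an interferon response element (GAAANNGAA).

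With the start counted as 0, the Clec4d window held a PU.1 match at -241 and an interferon-element match at 1, both read on the opposite strand. The Clec4e window held 1 C/EBP match, at -66, and the Clec5a window held PU.1 matches at -82 and -56, all on the opposite strand too. No printed match overlapped another. Of 32851 promoter windows of the same length, 13.6% held the PU.1 letters, 10.8% C/EBP, 7.81% AP-1 and 8.56% the interferon element. Clec4a1 held a PU.1 match and Clec4a2 an AP-1 match. The windows of Clec4a3, Clec7a and Cd209a held none of these letters. The interferon letters were shortened, and an NF-kB motif was dropped, after matches had been seen. A match describes the letters and is not a site.

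Across the 10 receptors, the Fth1-high LPS cells had more Clec4d and less Clec10a and Cd209a than the Fth1-low LPS cells. The Fth1-low LPS cells had more Clec4d, Clec4e, Clec4n and Clec5a, and less Cd209a, than the untreated Fth1-low cells. Clec4a1, Clec4a2 and Clec7a passed the test in no comparison. Differences are log2 ± SE and adjusted p are from edgeR's quasi-likelihood test with Benjamini-Hochberg adjustment over all 13665 genes tested, with calls below 0.05. In bulk RNA, fewer cells that carry a transcript and less of it per cell cannot be told apart.

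**Figure D1:**
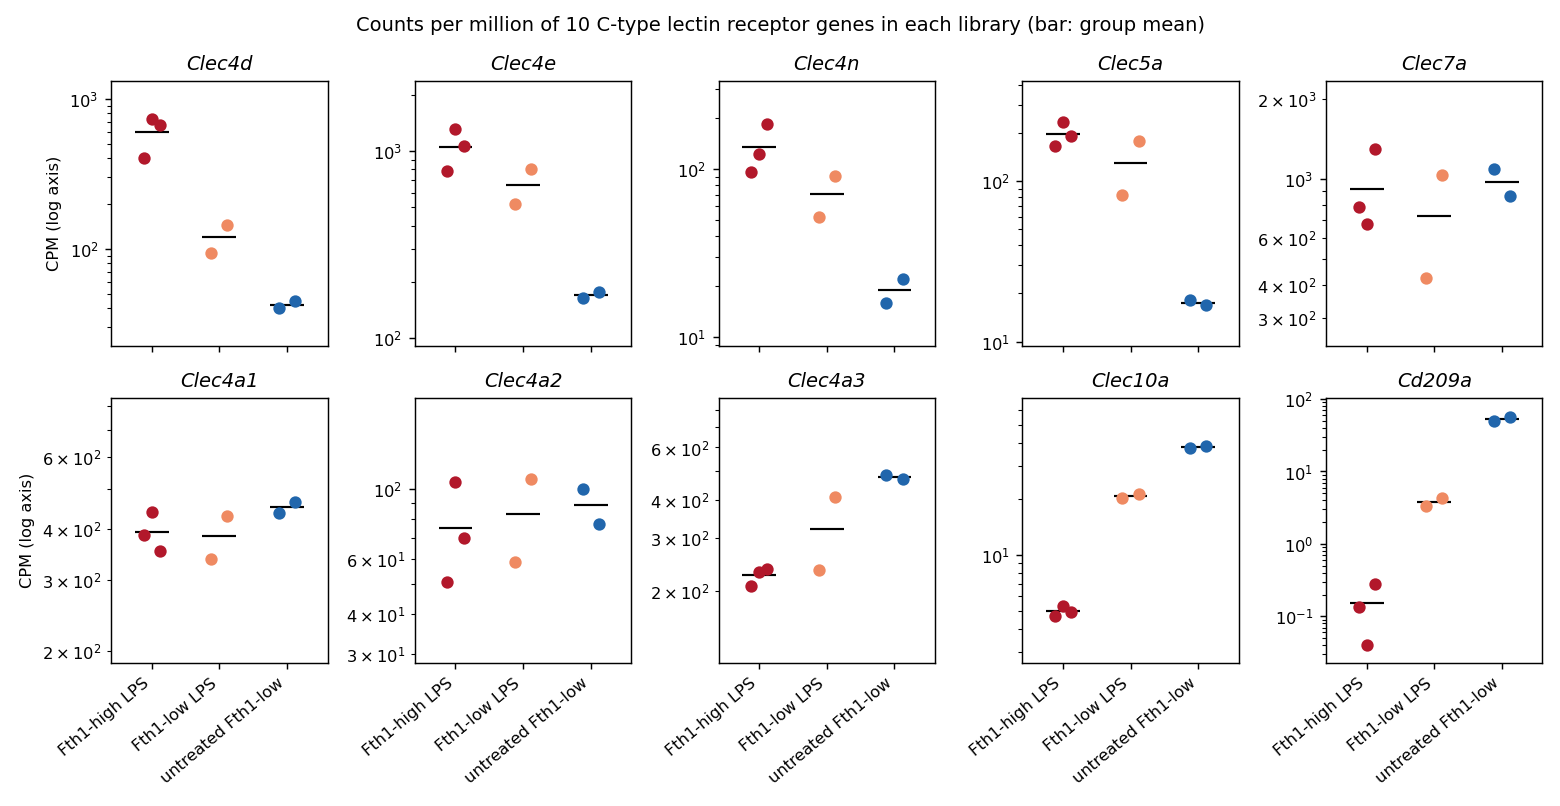
CPM of each of the 10 receptor genes in the 7 libraries, on log axes that differ between panels, with a bar at each group mean (n = 3, 2 and 2). Clec4d steps down from Fth1-high LPS through Fth1-low LPS to untreated libraries, Clec10a and Cd209a step up in the same order, and the groups overlap for Clec7a and Clec4a2.

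Among the receptors that pair with the gamma chain, Clec4d separated all 3 groups. It stood at 402, 730 and 664 CPM in Fth1-high LPS libraries, 93.8 and 145 CPM in Fth1-low LPS libraries, and 40.4 and 44.6 CPM in untreated libraries. No library of one group reached the range of another. Fth1-high LPS cells exceeded Fth1-low LPS cells by 2.29 ± 0.32 (adjusted p = 0.00268), a 4.89-fold difference. Fth1-low LPS cells exceeded untreated cells by 1.53 ± 0.33 (adjusted p = 0.0358), or 2.89-fold. This second call was the less firm: the adjusted p was 0.0535 without replicate 3 of the Fth1-high LPS group, 0.0505 and 0.161 without Fth1-low LPS replicates 1 and 2, and 0.252 and 0.202 without untreated replicates 1 and 2. With equal depths it was 0.0553. Fth1-high LPS cells stood 3.82 ± 0.34 above untreated cells (adjusted p = 5.2e-05), or 14.1-fold.

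Clec4e, the neighbour of Clec4d and the receptor for mycobacterial cord factor, was higher in both LPS groups and was not called between them. Its levels were 785, 1318 and 1061 CPM in Fth1-high LPS, 519 and 800 CPM in Fth1-low LPS, and 163 and 176 CPM in untreated libraries. The Fth1-low LPS range reached just above the lowest Fth1-high LPS library, and both lay far above the untreated pair. The difference between the LPS gates, 0.67 ± 0.28, did not pass (adjusted p = 0.209), with a 95% interval of 0.03 to 1.31. Fth1-low LPS cells exceeded untreated cells by 1.97 ± 0.32 (adjusted p = 0.0087), or 3.91-fold, a call lost without untreated replicate 1 (adjusted p = 0.103) or replicate 2 (0.0873). Fth1-high LPS cells exceeded untreated cells by 2.64 ± 0.31 (adjusted p = 0.000268), or 6.21-fold.

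Clec4n, which recognises fungal mannans, had 95.5, 123 and 185 CPM in Fth1-high LPS, 51.9 and 90.9 CPM in Fth1-low LPS, and 15.9 and 22.0 CPM in untreated libraries. The groups did not overlap, though the LPS gates came within a few CPM of each other. The LPS gates differed by 0.84 ± 0.34, which did not pass (adjusted p = 0.186), and its 95% interval ran over 0.08 to 1.60. With all libraries thinned to the depth of the shallowest, it was called at 1.07 (adjusted p = 0.0306). Fth1-low LPS cells exceeded untreated cells by 1.99 ± 0.38 (adjusted p = 0.0186), or 3.98-fold. This was not called without Fth1-low LPS replicate 2 (adjusted p = 0.157), untreated replicate 1 (0.172) or untreated replicate 2 (0.0844). Fth1-high LPS cells stood 2.83 ± 0.36 above untreated cells (adjusted p = 0.000439), or 7.12-fold.

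The DAP12-coupled receptor Clec5a had the largest difference upward of the 10 between Fth1-low LPS and untreated cells. It had 166, 234 and 191 CPM in Fth1-high LPS, 82.0 and 179 CPM in Fth1-low LPS, and 18.2 and 16.9 CPM in untreated libraries. The LPS gates overlapped and both stood apart from the untreated pair. Fth1-low LPS cells exceeded untreated cells by 2.96 ± 0.35 (adjusted p = 0.00154), or 7.77-fold, and the call held in each of the 17 alternative settings. Without Fth1-low LPS replicate 2 the difference was 2.21 (adjusted p = 0.0179). Fth1-high LPS cells exceeded untreated cells by 3.49 ± 0.35 (adjusted p = 9.7e-05), or 11.2-fold. Between the LPS gates it differed by 0.53 ± 0.30 (adjusted p = 0.362), and only without Fth1-low LPS replicate 2 was it called, at 1.27 (adjusted p = 0.0453).

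Clec7a, the beta-glucan receptor, varied as much within groups as between them. Its levels were 782, 676 and 1296 CPM in Fth1-high LPS, 424 and 1033 CPM in Fth1-low LPS, and 1090 and 863 CPM in untreated libraries. Every pair of groups overlapped. The difference between the LPS gates was 0.32 ± 0.40 (adjusted p = 0.708), with a 95% interval of -0.58 to 1.22. Fth1-low LPS minus untreated cells was -0.41 ± 0.43 (adjusted p = 0.781) and Fth1-high LPS minus untreated cells was -0.09 ± 0.39 (adjusted p = 0.895). The 95% intervals of these last differences were -1.39 to 0.57 and -0.98 to 0.80, wide for a gene of this level.

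The 3 DCIR relatives did not move as a set. Clec4a1 held 387, 441 and 352 CPM in Fth1-high LPS, 337 and 430 CPM in Fth1-low LPS, and 437 and 466 CPM in untreated libraries. Its differences were 0.03 ± 0.21 between the LPS gates, -0.23 ± 0.23 for Fth1-low LPS minus untreated and -0.20 ± 0.21 for Fth1-high LPS minus untreated. The lowest adjusted p of the 3 was 0.527, and the 95% interval between the LPS gates was -0.44 to 0.50, the narrowest of the 3 genes left uncalled throughout.

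Clec4a2, the member with an inhibitory motif, was at 50.5, 105 and 69.9 CPM in Fth1-high LPS, 58.6 and 108 CPM in Fth1-low LPS, and 99.9 and 77.3 CPM in untreated libraries. The groups overlapped in every comparison. Its differences were -0.22 ± 0.34, -0.02 ± 0.38 and -0.24 ± 0.33 for the LPS gates, Fth1-low LPS minus untreated and Fth1-high LPS minus untreated, with adjusted p of 0.780, 0.997 and 0.651. Of its 58-base exon stretches, 5.98% also occur in other genes, so reads could be shared there. Most of those genes are not lectins, though Clec4a4 and Clec4b1 are among them.

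Clec4a3 was called in 1 comparison, lower in Fth1-high LPS than in untreated cells. It had 206, 231 and 237 CPM in Fth1-high LPS, 234 and 410 CPM in Fth1-low LPS, and 487 and 470 CPM in untreated libraries. The untreated libraries stood above all 5 LPS libraries. Fth1-high LPS minus untreated cells gave -1.09 ± 0.24 (adjusted p = 0.00946), or 2.13-fold lower. Without untreated replicate 1 or 2 that adjusted p was 0.061 and 0.0583. The difference of -0.55 ± 0.27 for Fth1-low LPS minus untreated was not called (adjusted p = 0.442). Between the LPS gates it was -0.54 ± 0.24, not called either (adjusted p = 0.241) but called at -0.89 (adjusted p = 0.0367) without Fth1-low LPS replicate 1.

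The sugar receptors Clec10a and Cd209a were lowest in Fth1-high LPS cells. Clec10a had 4.71, 5.32 and 4.95 CPM in Fth1-high LPS, 20.1 and 21.3 CPM in Fth1-low LPS, and 37.7 and 38.7 CPM in untreated libraries. The 3 groups stood apart with little spread inside each. Fth1-high LPS minus Fth1-low LPS cells gave -2.06 ± 0.20 (adjusted p = 0.000485), or 4.18-fold lower. Fth1-high LPS minus untreated cells gave -2.93 ± 0.19 (adjusted p = 8.8e-06), or 7.62-fold lower. The step of -0.87 ± 0.22 for Fth1-low LPS minus untreated was not called (adjusted p = 0.0737), and in none of the 17 alternatives, where its adjusted p ranged over 0.052 to 0.399. Of its 58-base exon stretches, 7.12% occur elsewhere, among them in its relative Mgl2.

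Cd209a showed the largest differences of the 10. It had 0.133, 0.0406 and 0.283 CPM in Fth1-high LPS libraries, which were 2, 1 and 8 counts. It had 3.35 and 4.32 CPM in Fth1-low LPS libraries (2 and 84 counts) and 49.5 and 57.4 CPM in untreated libraries (1188 and 616 counts). No group came near the range of another. Fth1-low LPS minus untreated cells gave -3.67 ± 0.42 (adjusted p = 0.0012), or 12.7-fold lower, and the call held in all 17 alternatives. Fth1-high LPS minus untreated cells gave -8.32 ± 0.42 (adjusted p = 3.4e-06), or 320-fold lower, and -9.30 without Fth1-high LPS replicate 3. Fth1-high LPS minus Fth1-low LPS cells gave -4.65 ± 0.47 (adjusted p = 0.000541), or 25.1-fold lower. That last call rested on Fth1-low LPS replicate 2: without it the adjusted p was 0.128, and with equal depths 0.0562. Without Fth1-high LPS replicate 3 the difference was -5.63.

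Clec10a and Cd209a are also dendritic cell markers. The other 8 genes on a list of 10 such markers summed to 4.06 to 13.8 CPM in Fth1-high LPS, 80.4 to 94.3 CPM in Fth1-low LPS and 148 to 174 CPM in untreated libraries. Of the 7 tested list genes other than these receptors, 3 were lower in Fth1-high LPS than in Fth1-low LPS cells, against 4.57% of all genes. Between the Fth1-low groups the list gene that was called was Cd209a itself. Among the other 8, means of Flt3, Zbtb46, Dpp4 and Irf4 were lower in Fth1-low LPS than in untreated cells. Those of Clec9a (8.66 against 3.89 CPM), Xcr1 (4.88 against 0.733), Itgae (3.69 against 0.863) and Ccl17 (0.617 against 0.337) were higher. In Fth1-low LPS replicate 1 these 4 rested on 7, 5, 3 and 0 counts. Replicate 2 alone held 5.61, 1.39, 2.37 and 1.23 CPM of them. By these means, some from very few counts, the list did not move as a set there, and none of the 7 tested was called. Zbtb46, which defines classical dendritic cells, and Ccl17 were at 0 in Fth1-low LPS replicate 1. A list of 6 nonclassical monocyte genes moved the same way, at 728 to 970, 2695 to 3034 and 7536 to 8005 CPM in the same order of groups. Of it, 4 of 6 were lower in Fth1-high LPS than Fth1-low LPS cells, and 4 of 6 in Fth1-low LPS than untreated cells. Over all genes 4.57% and 0.629% were lower in these comparisons. On a list of 5 classical monocyte genes, 3 were also lower in Fth1-high LPS than Fth1-low LPS cells. Between the Fth1-low groups 1 of those 5 was higher, against 2.99% of all genes. In Fth1-high LPS against untreated cells 1 was higher and 4 were lower, against 12.4% and 11.9%. The part of these cell types in the receptor values was not tested.

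The members of a list of 7 interstitial macrophage genes split. C1qa, C1qb and C1qc rose in all 3 comparisons, beside Clec4d. Lyve1 fell in Fth1-high LPS against Fth1-low LPS cells, and Lyve1, Cd163 and Mrc1 fell in Fth1-high LPS against untreated cells. Between the LPS gates 3 of the 7 rose and 1 fell, against 3.68% and 4.57% of all genes. Between the Fth1-low groups 3 rose, against 2.99%. In Fth1-high LPS against untreated cells 3 of 7 rose and 3 fell, against 12.4% and 11.9% of all genes. The list summed to 977 to 1728 CPM in Fth1-high LPS, 208 to 576 CPM in Fth1-low LPS and 59.7 to 68.1 CPM in untreated libraries, and in the LPS libraries C1qa, C1qb and C1qc made up most of it. The list genes Folr2 and Cd163 were at 0 in a library. On a list of 7 general monocyte and macrophage genes, 3 rose and none fell between the LPS gates, against the same shares of all genes. None was called between the Fth1-low groups, and 4 rose and none fell in Fth1-high LPS against untreated cells. Neutrophils also carry Clec4d, Clec4e and Clec5a. A list of 10 neutrophil genes summed to 42.9 to 99.6 CPM in Fth1-high LPS, 97.1 to 146 CPM in Fth1-low LPS and 21.8 to 35.6 CPM in untreated libraries. S100a8 and S100a9 made up most of that sum in every library. No other gene of the list passed 4.94 CPM, and Ly6g was at 0 to 0.0932 CPM in all 7 libraries. The part of any of these cell types was not tested.

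**Figure D2:**
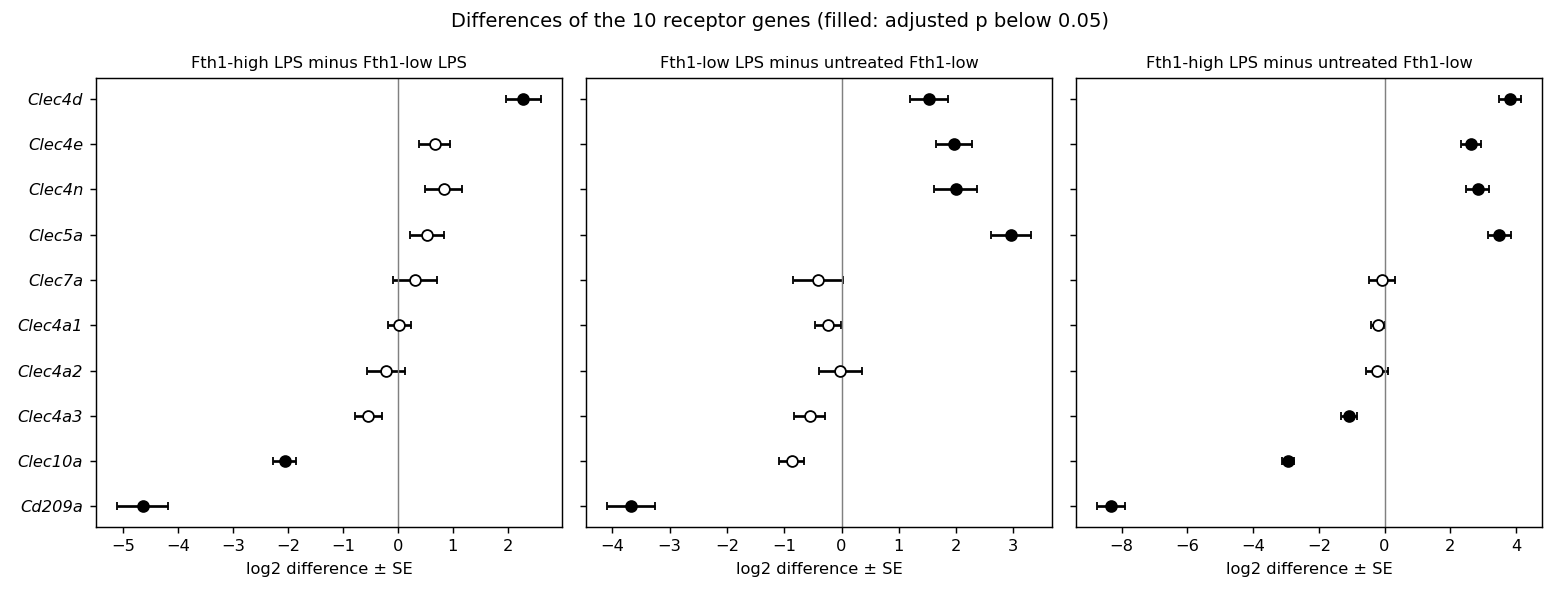
Log2 difference ± SE of the 10 receptor genes in the 3 comparisons, filled where the adjusted p was below 0.05. Clec4d is filled on the right in all 3 panels and Cd209a on the left in all 3, while Clec7a, Clec4a1 and Clec4a2 lie near 0 and are open throughout.

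Counts of called receptors stand beside those of all genes tested. Fth1-high LPS against Fth1-low LPS cells gave 1 receptor higher and 2 lower of 10, where 8.25% of all genes were called, 3.68% higher and 4.57% lower. The groups did not overlap for 4 of 10 receptors, against 41.3% of all genes. Fth1-low LPS against untreated cells gave 4 higher and 1 lower, where 3.62% of all genes were called, 2.99% higher and 0.629% lower, and 8 of 10 did not overlap, against 39.5%. Fth1-high LPS against untreated cells gave 4 higher and 3 lower, where 24.3% were called, 12.4% higher and 11.9% lower, and 7 of 10 did not overlap, against 58.1%. The median differences of the 10 receptors were 0.18, -0.13 and -0.14 in that order of comparisons, beside 0.04, -0.05 and 0.03 over all genes, since receptors moved in both directions. The comparisons share libraries, so their calls are not independent of each other. Without Fth1-low LPS replicate 2 the second comparison called 3 receptors, and without untreated replicate 1 or 2 it called 2, Clec5a and Cd209a.

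Levels of different receptors can be compared per kb of annotated exon. In Fth1-high LPS cells Clec4d led with a mean of 374 CPM per kb (range 251 to 457), followed by Clec7a at 348 (256 to 491), Clec4a1 at 252 (226 to 283) and Clec4e at 212 (158 to 265). Each neighbour in this order overlapped the next across libraries. Within libraries Clec7a stood above Clec4d in replicates 1 (296 against 251) and 3 (491 against 415). Clec4d led only in replicate 2 (457 against 256 CPM per kb). Below them came Clec4a3 at 169, Clec4n at 94.6, Clec5a at 51.3, Clec4a2 at 25.7, Clec10a at 1.72 and Cd209a at 0.096 CPM per kb. In Fth1-low LPS cells Clec7a (276), Clec4a1 (246) and Clec4a3 (243) led and overlapped, and Clec4d ranked 5 with 74.6 CPM per kb.

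In untreated cells Clec7a (370, range 327 to 413), Clec4a3 (360, range 354 to 367) and Clec4a1 (290, range 281 to 299 CPM per kb) led. Clec4a1 lay below both of the others in each library, while Clec7a and Clec4a3 overlapped. Cd209a ranked 5 there at 33.8 CPM per kb, close to Clec4e at 34.2, and Clec5a was last at 4.56 CPM per kb. Clec4e's place depends on its length, because its exon union of 4965 bp takes in retained introns and its longest coding transcript is 2518 bp. On coding lengths Clec4e ranked 2 in both LPS groups, with 419 CPM per kb in Fth1-high LPS cells and 262 CPM per kb in Fth1-low LPS cells.

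Summed over the 10 receptors, the level was 1239, 1620 and 1731 CPM per kb in Fth1-high LPS, 803 and 1385 in Fth1-low LPS, and 1213 and 1140 in untreated libraries. The groups overlapped in this sum for Fth1-low LPS cells with both others. Clec4d and Clec4e together made up 33.0%, 44.6% and 36.3% of it in Fth1-high LPS, 20.3% and 18.2% in Fth1-low LPS, and 4.79% and 5.56% in untreated libraries. On coding transcript lengths the group means of this share were 45.6%, 27.4% and 7.71% in place of 38.0%, 19.2% and 5.18%, in the same order of groups. Clec4a3 ran the other way, with group means of 11.2%, 22.1% and 30.7%. Clec5a, at 3.37%, 3.01% and 0.388%, stayed a small part in every group.

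**Figure D3:**
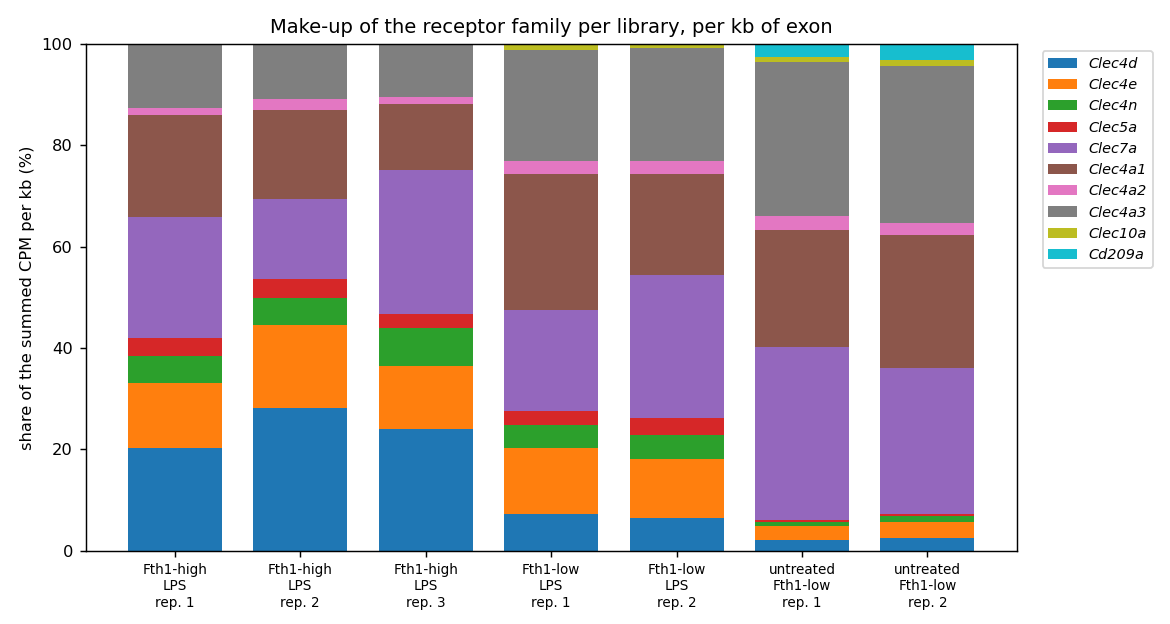
Share (%) of each receptor gene in the summed CPM per kb of exon of the 10 genes, for each of the 7 libraries. The part of Clec4d and Clec4e at the bottom of each bar is 33.0% to 44.6% in Fth1-high LPS, 18.2% to 20.3% in Fth1-low LPS and 4.79% to 5.56% in untreated libraries.

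Clec4d and Clec4e are neighbours whose proteins can form one complex, and their balance differed between groups. There were 0.512, 0.554 and 0.626 Clec4d counts for each Clec4e count in Fth1-high LPS, 0.181 and 0.181 in Fth1-low LPS, and 0.248 and 0.253 in untreated libraries. The 3 groups did not overlap, and Fth1-low LPS cells had the lowest ratio. It was 3.11-fold higher in Fth1-high LPS than in Fth1-low LPS cells and 2.25-fold higher than in untreated cells (exact permutation test, two-sided, p = 0.2 for each, the smallest that 3 against 2 libraries allow). Fth1-low LPS cells had 0.723 times the untreated ratio (exact permutation p = 0.333, the smallest that 2 against 2 allow). These designs cannot reach 0.05. A ratio within a library does not depend on depth scaling, but its counting error grows as depth falls. The 2 Fth1-low LPS libraries differ 29.8-fold in depth and gave the same value to 3 digits. Replicate 1 of that pair held only 56 Clec4d and 310 Clec4e counts, so this match is closer than its counting error allows one to read.

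Clec4e counts per Clec7a count were 1.00, 1.95 and 0.818 in Fth1-high LPS, 1.23 and 0.774 in Fth1-low LPS, and 0.150 and 0.205 in untreated libraries. The LPS gates overlapped, and both were above the untreated pair. Clec4a3 counts per Clec4a1 count were 0.534, 0.524 and 0.672 in Fth1-high LPS, 0.697 and 0.954 in Fth1-low LPS, and 1.11 and 1.01 in untreated libraries, with no overlap. This ratio was 0.703 times as high in Fth1-high LPS as in Fth1-low LPS cells and 0.541 times as high as in untreated cells (exact permutation p = 0.2 for each, again the smallest possible).

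**Figure D4:**
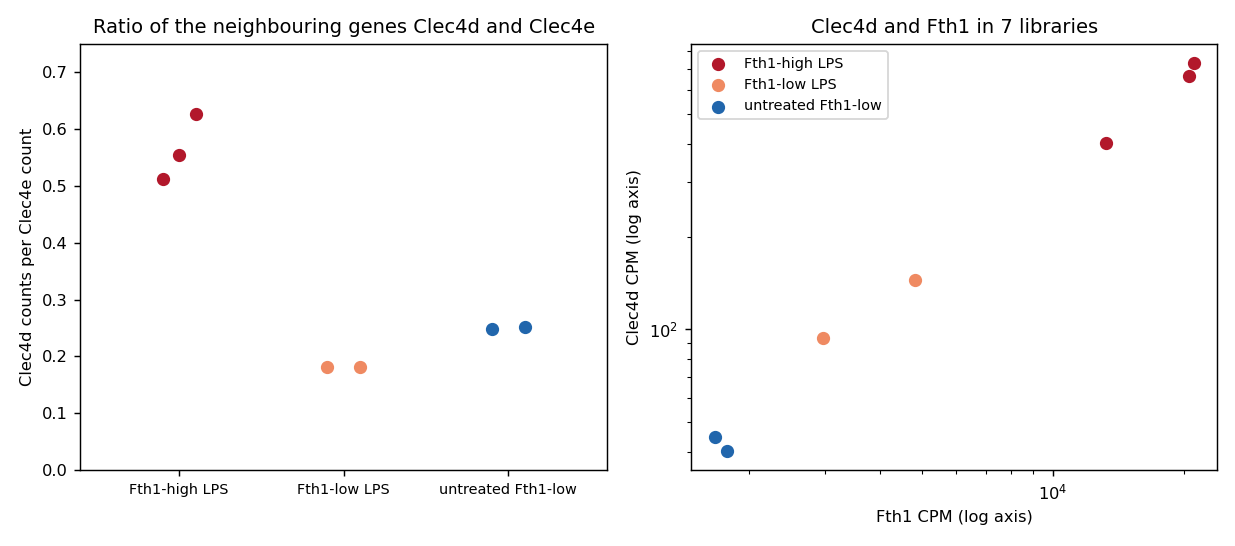
Left, Clec4d counts per Clec4e count in each library by group. Right, CPM of Clec4d against CPM of Fth1 in the 7 libraries on log axes: the Fth1-high LPS libraries lie at 402 to 730 CPM of Clec4d, above the Fth1-low LPS and then the untreated libraries.

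The genes nearest to each receptor in pattern were found by Pearson r of log2 CPM over the 7 libraries among 8338 genes of at least 10 CPM on average. These r describe libraries that share 3 groups, and carry no test. For Clec4d the nearest gene was Fth1 (r = 0.997), on whose reporter the cells were gated, followed by Ttll12 (0.995), a tubulin ligase relative. Nearest to Clec4e were Gm5424 (0.993) and the acute-phase gene Saa3 (0.991), and to Clec4n the repressor Zbtb18 (0.995) and the chemokine Cxcl3 (0.990). Clec5a lay nearest to Shtn1 (0.997) and Slamf8 (0.997), a macrophage surface receptor. Clec10a lay nearest to Lrmp (0.998) and Treml4 (0.998), a nonclassical monocyte receptor, and Cd209a to the cytokine gene Tgfb1 (0.998) and Mical1 (0.998).

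Clec4a3 lay nearest to Glud1 (0.997), the glutamate dehydrogenase gene, and Clint1 (0.997). For the 3 receptors called in no comparison the r were lower. Clec7a lay nearest to Ivd (0.978) and Mgat1 (0.972), Clec4a1 to Tmed10 (0.960) and Cwc22 (0.959), and Clec4a2 to Rbm3-ps (0.976) and Med29 (0.952).

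Of 53 other C-type lectins, 52 were in the table and 34 were tested. In Fth1-high LPS against Fth1-low LPS cells 2 rose and 6 fell (median -0.88), where 3.68% of all genes rose and 4.57% fell (median 0.04). In Fth1-low LPS against untreated cells 4 rose and 1 fell (median -0.30), beside 2.99% and 0.629% of all genes (median -0.05). In Fth1-high LPS against untreated cells 6 rose and 12 fell (median -1.13), beside 12.4% and 11.9% of all genes (median 0.03). Ly75 (DEC-205), an endocytic receptor, had 53.1, 81.0 and 77.7 CPM in Fth1-high LPS, 6.70 and 9.05 CPM in Fth1-low LPS, and 3.87 and 3.73 CPM in untreated libraries. It rose between the LPS gates by 3.03 ± 0.29 (adjusted p = 0.000395), as did Olr1, the oxidised LDL receptor, by 1.12 ± 0.29 (adjusted p = 0.046). Olr1 also rose by 2.36 ± 0.33 in Fth1-low LPS against untreated cells (adjusted p = 0.00356). Cd72, an inhibitory coreceptor, had 76.8, 85.7 and 116 CPM in Fth1-high LPS, 28.5 and 69.9 CPM in Fth1-low LPS, and 2.67 and 1.86 CPM in untreated libraries. Cd72 rose by 4.55 ± 0.42 between the Fth1-low groups (adjusted p = 0.000398).

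Of those with lower levels, Clec2i, a ligand of NK cell receptors, fell by 2.50 ± 0.24 in Fth1-high LPS against Fth1-low LPS cells (adjusted p = 0.000394). Thbd (thrombomodulin), an anticoagulant receptor, fell by 1.48 ± 0.30 there (adjusted p = 0.0157). Thbd was the only one of the 34 that fell in Fth1-low LPS against untreated cells, by 1.65 ± 0.34 (adjusted p = 0.0277).

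Of the shared adaptors, Fcer1g, the gamma chain that Clec4d, Clec4e and Clec4n need, stood at 837, 1225 and 1256 CPM in Fth1-high LPS, 1140 and 890 CPM in Fth1-low LPS, and 839 and 770 CPM in untreated libraries. Its differences were 0.13 ± 0.25 between the LPS gates, 0.33 ± 0.27 for Fth1-low LPS minus untreated and 0.46 ± 0.25 for Fth1-high LPS minus untreated cells, none of them called (lowest adjusted p = 0.224). Tyrobp, the partner of Clec5a, had 540, 809 and 853 CPM in Fth1-high LPS, 1694 and 1033 CPM in Fth1-low LPS, and 1505 and 1176 CPM in untreated libraries. Its difference of -0.89 ± 0.29 between the LPS gates was not called (adjusted p = 0.108). Nor were 0.02 ± 0.33 for Fth1-low LPS minus untreated (adjusted p = 0.996) and -0.87 ± 0.29 for Fth1-high LPS minus untreated cells (adjusted p = 0.0578). The Fth1-high LPS libraries lay below those of both other groups. The kinase Syk was at 636, 707 and 650 CPM in Fth1-high LPS, 569 and 652 CPM in Fth1-low LPS, and 611 and 675 CPM in untreated libraries, with overlap in every comparison. Card9 fell in Fth1-high LPS against untreated cells by 0.83 ± 0.21 (adjusted p = 0.0183) and was not called between the LPS gates (adjusted p = 0.380).

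Of 51 adaptor and signalling genes, all tested, 3 rose and 7 fell in Fth1-high LPS against Fth1-low LPS cells (median -0.14). In Fth1-low LPS against untreated cells 2 rose and none fell (median -0.07). In Fth1-high LPS against untreated cells 8 rose and 14 fell (median -0.22). Over all genes 3.68% rose and 4.57% fell in the first of these comparisons (median 0.04). The shares were 2.99% and 0.629% in the second (median -0.05), and 12.4% and 11.9% in the third (median 0.03). Src, a kinase that can phosphorylate receptor tails, had 61.8, 79.0 and 131 CPM in Fth1-high LPS, 11.7 and 17.8 CPM in Fth1-low LPS, and 1.62 and 0.466 CPM in untreated libraries. Src rose by 2.46 ± 0.46 across the LPS gates (adjusted p = 0.0109) and by 3.80 ± 0.54 across the Fth1-low groups (adjusted p = 0.00466). Its relative Fgr fell by 1.11 ± 0.21 between the LPS gates (adjusted p = 0.0125). Blnk, an adaptor downstream of Syk, rose there by 3.23 ± 0.57 (adjusted p = 0.00869), with 24.9, 28.9 and 53.7 CPM in Fth1-high LPS libraries and 0 and 4.37 CPM in Fth1-low LPS libraries. The kinases of the NF-kB pathway Ikbkb and Map3k14 fell by 1.16 ± 0.18 (adjusted p = 0.00458) and 1.12 ± 0.25 (adjusted p = 0.0244). Egr2, a transcription factor induced by such receptors, rose by 2.19 ± 0.43 between the Fth1-low groups (adjusted p = 0.0233).

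**Figure D5:**
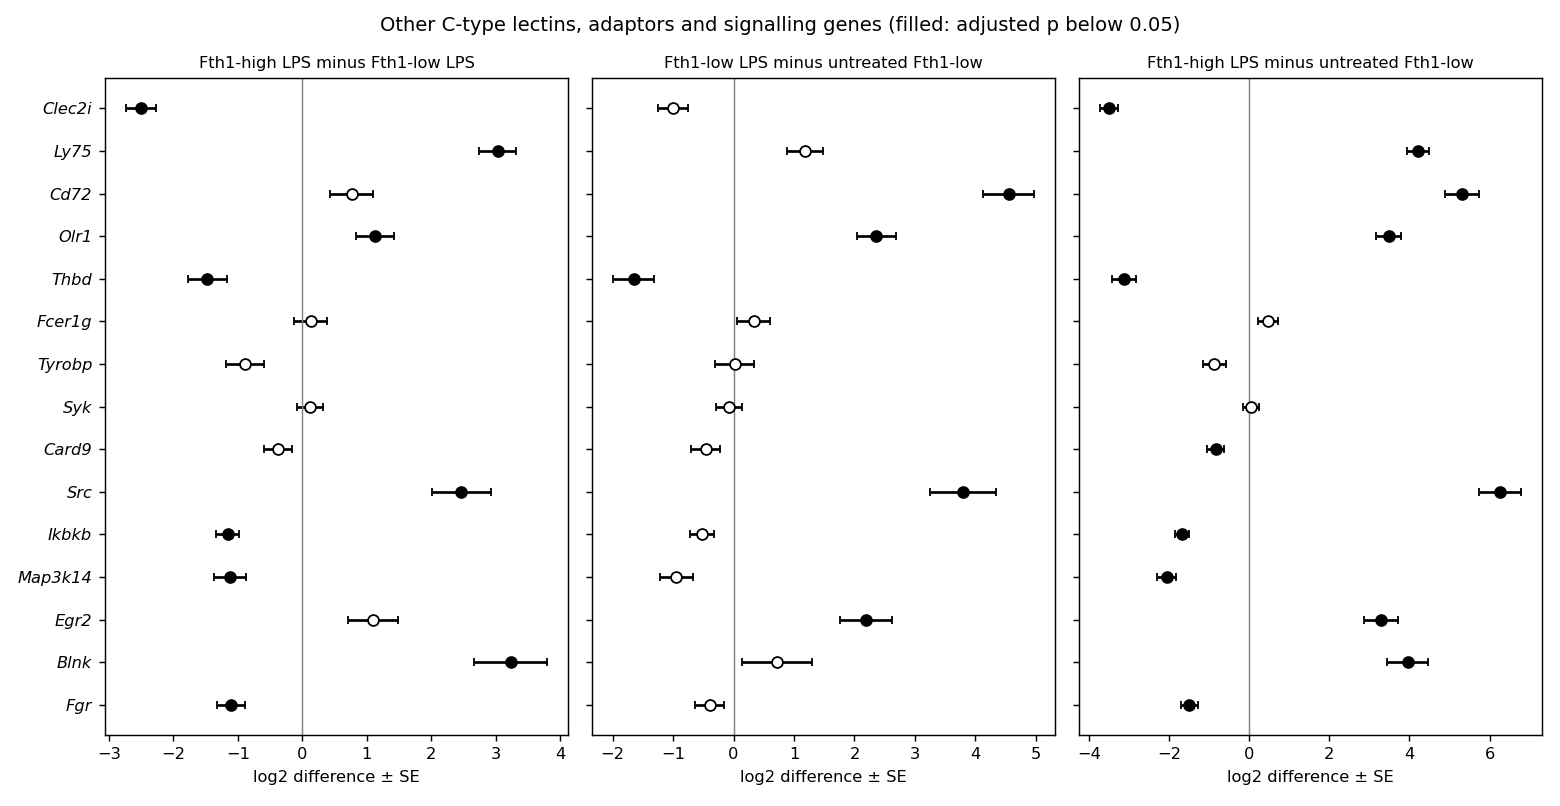
Log2 difference ± SE of 5 other C-type lectins, of the adaptors Fcer1g, Tyrobp, Syk and Card9, and of 6 further signalling genes in the 3 comparisons, filled where the adjusted p was below 0.05. Ly75 and Src lie to the right and Clec2i to the left between the LPS gates, while Fcer1g and Syk are open and near 0.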

How the data were processed

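RNA of sorted mouse lung cells was sequenced from polyadenylated RNA with a stranded kit (25 ng input, 15 PCR cycles, paired reads of 58 bp), per the labels' protocols. The authors deposited whole-number counts per gene and library. The submitters' processing notes name DRAGEN, DESeq2 and mm10. No source used here gives their versions, the annotation or the strand counted.

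The tests were run with edgeR 4.0.16 under R 4.3.3. Of 26130 genes, 6880 had no count and 13665 passed filterByExpr. Libraries were TMM-scaled, and a robust quasi-likelihood fit with 1 mean per group (n = 3, 2 and 2) used all 7 libraries, with residual df 4, a median prior df of 5.38 and a biological coefficient of variation of 0.301. Tests were two-sided, with Benjamini-Hochberg adjustment over all genes tested. CPM use TMM-scaled library sizes, and log2 CPM a prior count of 2. Intervals of differences cover the spread between libraries. Lengths and positions are from GENCODE vM21 and promoters from RefSeq GRCm38.p6. The promoter motifs were settled after matches had been seen: the interferon element was shortened and an NF-kB motif, which most windows held once shortened, was dropped.

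The 10 receptors, the other gene lists and the marker lists were chosen with earlier results of these data known. From the 2 other lists the text names the 6 genes of smallest adjusted p, plus Fcer1g, Tyrobp, Syk and Card9, and for each receptor its 2 nearest genes. One gene that this rule names is not reported here. Genes named from marker lists are the most abundant or those at 0. Others were chosen after their values were seen: those called, S100a9 and those of the dendritic cell list. The alternatives comprised 2 other scalings, limma 3.58.1 with voom, DESeq2 1.42.0, looser and stricter filters, thinned depth, ribosomal RNA and mitochondrial genes left out, fits of 2 groups, a replicate block and each library left out. The procedure was tested on simulated data. Replicate libraries differed by more than counting noise.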

Additional observations from a re-analysis of the deposited data

How the results depend on the processing

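Of 510 receptor differences, for 10 receptors in 3 comparisons under 17 alternatives, 473 kept their direction and side of the threshold, 15 lost a call, 3 gained one and 19 changed sign. The sign changes were all in Clec4a1, Clec4a2 and Clec7a, which were not called under any of them. Between the LPS gates Clec4a1 was -0.0031 with RLE size factors, -0.0080 with DESeq2, -0.026 with the filter of 10 CPM in 2 libraries, and -0.15 to 0.23 in the leave-one-out fits. Clec4a2 was 0.0079 when thinned and -0.55 to 0.37 in leave-one-out fits, and Clec7a -0.19 to 1.12 in them. Between the Fth1-low groups Clec4a2 was 0.14 with limma-voom, 0.022 with the 10 CPM filter, 0.00027 without ribosomal RNA and mitochondrial genes, 0.00092 with only those groups fitted, and -0.62 to 0.31 in leave-one-out fits, where Clec7a was -1.22 to 0.11. Between Fth1-high LPS and untreated cells Clec7a was -0.42 to 0.096 in leave-one-out fits. The causes were not tested.

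Counts over all genes between the LPS gates were 1128, and 658 to 1061 with 1 library left out. Without Fth1-low LPS replicate 2, 64.3% of called genes were higher, against 44.6%. Between the Fth1-low groups they were 495, 818 with DESeq2, and 197 to 531 with 1 library left out, and receptors called were 5 and 2 to 5. Without Fth1-low LPS replicate 2, 53.1% of those called were higher, against 82.6%, and the median of all genes moved to -0.27. Between Fth1-high LPS and untreated cells they were 3315, 2069 when thinned (8149 genes tested), and 1918 to 4143 with 1 library left out.

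Same-numbered libraries correlated at -0.037 to 0.290 in their deviations from group means, and at 0.271 and 0.088 between the LPS gates. In a group of 2 libraries these deviations mirror each other, so the values cannot decide whether the numbers pair libraries. The main fit did not use the numbers as pairs. With the replicate block the counts over all genes were 1328, 741 and 3119, and the receptor counts 3, 5 and 7 were as without it. Depth limits Cd209a most: 3 counts equal 5.02 CPM in Fth1-low LPS replicate 1, against 0.106 to 0.280 CPM elsewhere, for counting error only.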
